A study of Mus musculus with 16 samples.

Results

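The 30 genes described here encode the enzymes of cholesterol synthesis, their regulators, 1 sterol carrier and the main enzymes of fatty acid synthesis. They were taken from a given list and found on the arrays through the RefSeq accession of each probe. All 30 of them, out of 20972 genes named on the array, were measured and tested, and every one was well above background on all 16 arrays. The list holds 7 mevalonate steps, 3 squalene and lanosterol steps, 8 late sterol steps, 6 regulators and sterol transport genes and 6 fatty acid steps.

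RNA came from 16 pluripotent stem cell lines derived from mice of the 129/Ola strain, 4 lines in each of 4 culture groups, and each line was read on 1 single-colour Agilent array. EpiSC lines, called primed in the labels, were made from epiblast at E6.5, after implantation, grew in Activin A and bFGF and were at passages 24 to 28. The 2iSB_LIF and 2i_LIF lines, both called ground state, came from pre-implantation embryos. Both media held LIF with 2i, a pair of inhibitors usually aimed at MEK and GSK3. That of 2iSB_LIF lines held SB431542 as well, which inhibits receptors of Activin, Nodal and TGF-beta. The 2iSB_LIF lines were at passages 17 to 24 and the 2i_LIF lines at passages 22 to 24. LIF_serum lines, called naive, also came from pre-implantation embryos, grew in serum with LIF and were at passages 23 to 26. The labels give the cell type ESC to every line, EpiSC included, and by its title the study set the transcription of these states side by side on a shared genetic background.

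Cells build cholesterol from acetyl-CoA through mevalonate, the isoprenoid farnesyl diphosphate, squalene and lanosterol, and a series of late steps then trims lanosterol to cholesterol. When membrane sterol is low, SCAP escorts the SREBP transcription factors from the endoplasmic reticulum to the Golgi, where they are cut and released to switch on genes of both pathways, and when sterol is high, INSIG proteins hold SCAP back. Fatty acid synthesis starts from the same acetyl-CoA, which ACLY, ACACA and FASN turn into palmitate, and ELOVL6 and the SCD enzymes then lengthen and desaturate it.

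Values are log2 of the processed signal minus the 75th percentile of the array, here called the log2 signal, and differences are on that log2 scale. Between 51.5% and 63.6% of probes were well above background per array, no spot was saturated, and 4 arrays per group limit the precision. Of 8 naive pluripotency markers, 7 were called lower in EpiSC than in LIF_serum lines, and Dppa3 was well above background on no EpiSC array, while 4 markers shared by all pluripotent states were well above background on every array. The 18 fibroblast markers averaged log2 signals of 2.33 to 2.98 on EpiSC arrays, −4.54 to −4.41 on 2iSB_LIF arrays, −4.47 to −3.98 on 2i_LIF arrays and −1.72 to 0.88 on LIF_serum arrays. Their summed linear signal, in units of the 75th percentile, was 361 to 517, 3.16 to 3.53, 3.39 to 5.21 and 91.8 to 158 in the same order of groups. All 18 were well above background on every EpiSC array, and Lum, Dcn, Postn, Twist2 and Prrx1 on no ground-state array. The part of other cells in the results below was not tested, and in bulk RNA fewer cells of a type and less RNA per cell cannot be told apart. All EpiSC arrays lay on slide 2, and LIF_serum arrays 1 and 2, coded LS in the labels, lay on slide 1, while arrays 3 and 4, coded LSFF, lay on slide 2. The labels do not say what these codes stand for.

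Promoter windows from RefSeq (GRCm38.p6, 250 bases before to 50 after the transcript start) were found for 24 of the 30 genes, with 32 windows, and not for Fdps, Fdft1, Sqle, Stard4, Scd1 and Scd2. They were searched on both strands for a sterol regulatory element (SRE, TCACNCCAC), an E-box (CACGTG) and CCAAT, the letters of the NF-Y site. CCAAT was present in 20 of the 24 genes and in 21 of the 32 windows, against 37.4% of all 32851 RefSeq windows of this length. An E-box was present in 5 genes (Hsd17b7, Sc5d, Dhcr7, Insig1 and Scap) and in 6 of the 32 windows, against 7.15% of all windows. The Scap windows overlap and hold the same E-box. The SRE letters were in Hmgcs1 alone, 1 of the 32 windows, against 1.24% of all windows. These are letter matches, not sites shown to be bound, and no match says only that the letters are not in the window. The 5 windows below belong to genes the results return to, read 5′ to 3′ on the strand of the gene, with SRE, E-box and CCAAT matches in capitals (ATTGG is CCAAT on the other strand). Hmgcs1 holds the SRE match, which begins 137 bases before the start. Hsd17b7 and Insig1 hold an E-box each, Cyp51 holds a single CCAAT, and Fasn holds 3 CCAAT matches, of which 2 overlap.
Hmgcs1 (chr13:119690101-119690400, plus strand): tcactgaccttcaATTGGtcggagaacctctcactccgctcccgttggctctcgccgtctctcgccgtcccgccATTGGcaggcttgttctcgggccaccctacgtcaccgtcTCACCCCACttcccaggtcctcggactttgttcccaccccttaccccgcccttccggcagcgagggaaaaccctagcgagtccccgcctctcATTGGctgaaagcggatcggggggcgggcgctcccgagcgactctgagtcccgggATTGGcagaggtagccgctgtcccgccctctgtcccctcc
Hsd17b7 (chr1:169969156-169969455, minus strand): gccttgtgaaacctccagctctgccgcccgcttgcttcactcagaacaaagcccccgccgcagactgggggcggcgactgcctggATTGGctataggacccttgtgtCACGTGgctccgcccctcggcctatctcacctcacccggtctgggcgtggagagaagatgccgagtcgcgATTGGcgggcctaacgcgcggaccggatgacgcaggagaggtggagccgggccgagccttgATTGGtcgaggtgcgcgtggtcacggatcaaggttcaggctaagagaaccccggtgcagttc
Insig1 (chr5:28071162-28071461, plus strand): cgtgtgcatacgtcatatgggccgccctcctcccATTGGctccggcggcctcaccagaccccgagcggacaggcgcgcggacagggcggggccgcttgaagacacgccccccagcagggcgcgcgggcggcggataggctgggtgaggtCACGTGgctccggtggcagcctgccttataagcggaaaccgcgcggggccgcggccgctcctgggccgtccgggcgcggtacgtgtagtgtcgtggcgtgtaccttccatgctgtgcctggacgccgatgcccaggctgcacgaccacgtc
Cyp51 (chr5:4104648-4104947, minus strand): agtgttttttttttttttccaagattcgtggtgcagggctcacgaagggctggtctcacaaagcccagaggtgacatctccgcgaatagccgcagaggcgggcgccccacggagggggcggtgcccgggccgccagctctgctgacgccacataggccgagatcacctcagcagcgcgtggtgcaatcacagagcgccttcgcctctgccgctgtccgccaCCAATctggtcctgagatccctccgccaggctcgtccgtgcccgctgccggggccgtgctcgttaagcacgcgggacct
Fasn (chr11:120824498-120824797, minus strand): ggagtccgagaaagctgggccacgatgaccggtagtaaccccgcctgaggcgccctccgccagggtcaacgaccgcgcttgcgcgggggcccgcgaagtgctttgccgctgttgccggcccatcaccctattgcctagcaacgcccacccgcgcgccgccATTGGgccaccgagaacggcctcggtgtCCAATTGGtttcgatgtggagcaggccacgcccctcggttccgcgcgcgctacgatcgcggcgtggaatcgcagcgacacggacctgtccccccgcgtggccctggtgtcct

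The 2 ground-state cultures were compared with serum cultures first, since all 3 groups came from pre-implantation embryos. The lines of these groups differed in Y-linked signal. The Y-linked genes Ddx3y and Eif2s3y were well above background on none of the 8 ground-state arrays (mean log2 signal −7.60 to −5.98), while on LIF_serum arrays their mean was 2.42, 2.81 and 2.86 on arrays 1, 3 and 4 and −4.29 on array 2. Both were called lower in each ground-state culture, and the part of sex chromosomes in the differences below was not tested. Members of the list rose in both ground-state cultures and none fell. Scd1, Scd2, Fasn, Elovl6, Cyp51 and Hsd17b7 were below every ground-state array on all 4 LIF_serum arrays. A gene was called where its Benjamini-Hochberg adjusted p over 15509 genes (limma) was under 0.05 and its difference at least 2-fold. In 2iSB_LIF against LIF_serum lines 10 of 30 genes were called higher, against 6.81% of all genes, and none lower, against 13.3%. In 2i_LIF against LIF_serum lines 7 of 30 were called higher, against 6.25% of all genes, and none lower, against 12.1%. The median difference over the 30 genes was 0.66 in 2iSB_LIF and 0.65 in 2i_LIF lines, while the median over all genes was 0.02 in both. All 30 differences had a positive sign in 2iSB_LIF and 28 of 30 in 2i_LIF lines. The arrays did not overlap with LIF_serum arrays for 14 genes in 2iSB_LIF, against 29.6% of all genes, and for 12 in 2i_LIF lines, against 27.2%. Both comparisons share the LIF_serum arrays.

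**Figure D1:**
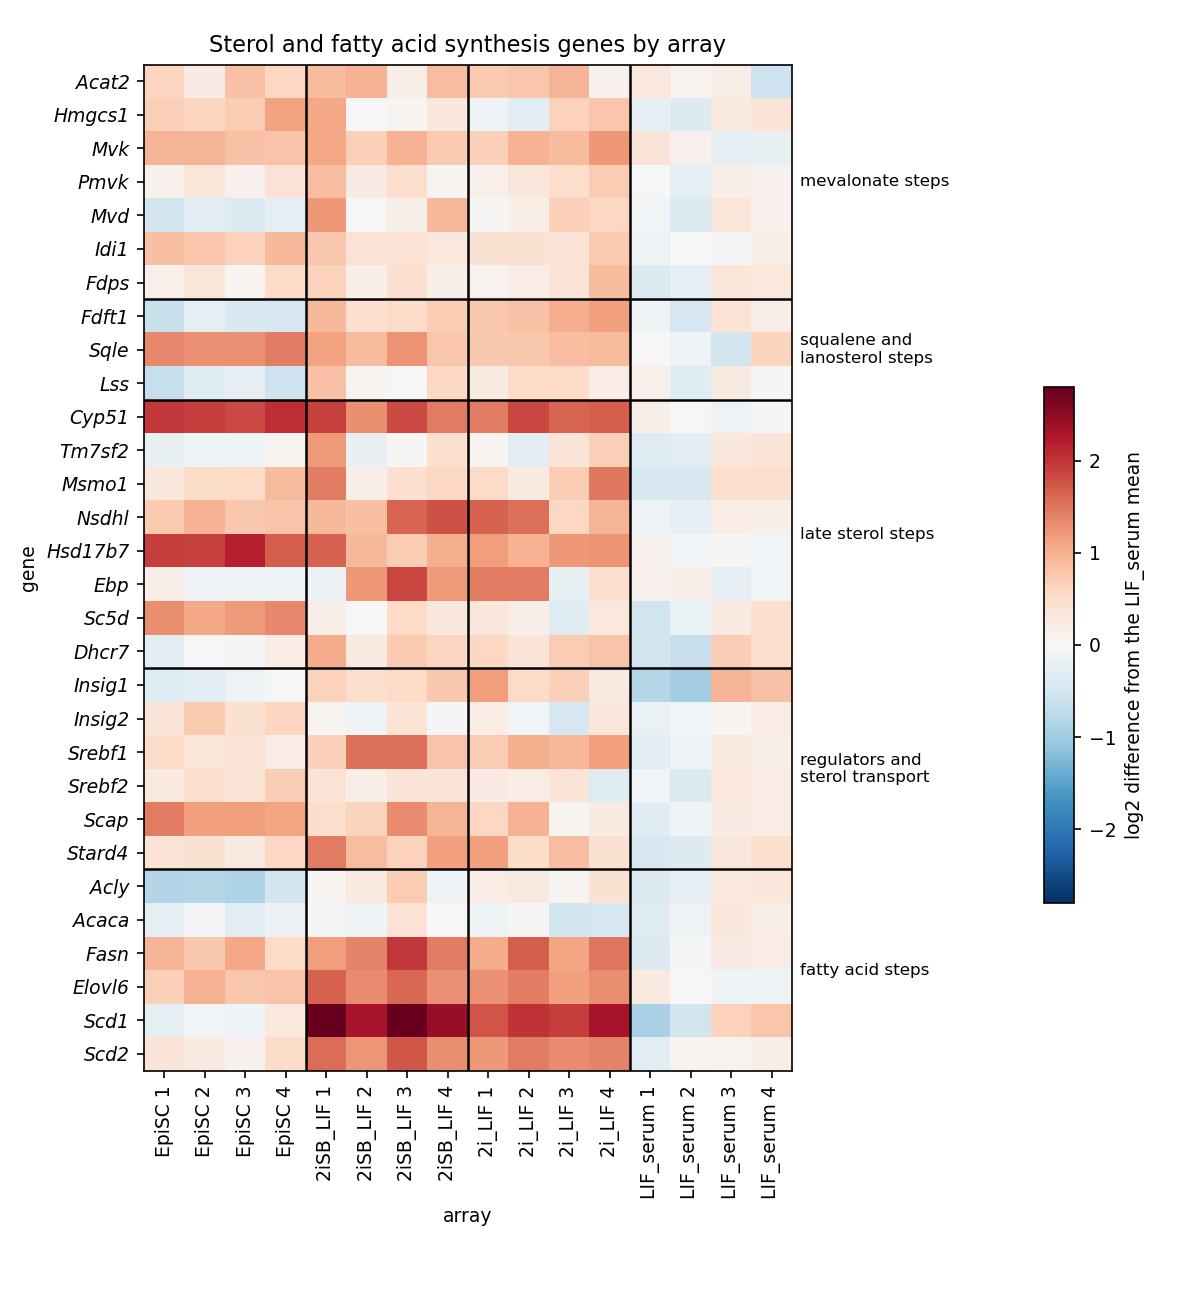
Log2 signal of the 30 genes (down the page, by role) on each of the 16 arrays (across), drawn as the difference from the gene's mean on the 4 LIF_serum arrays, with red for higher and blue for lower. Scd1, Scd2, Fasn and Elovl6 are red on all 8 ground-state arrays, Cyp51 and Hsd17b7 are red on these and on the EpiSC arrays, and Insig1 differs in colour between LIF_serum arrays 1 and 2 and arrays 3 and 4.

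The fatty acid steps moved most. Of the 6 genes, 4 rose in each ground-state culture, and their median difference was 1.46 in 2iSB_LIF and 1.31 in 2i_LIF lines. Scd1, a stearoyl-CoA desaturase that places the first double bond in a saturated fatty acid, had log2 signals of 3.94, 3.45, 4.00 and 3.59 on 2iSB_LIF arrays, 2.92, 3.18, 3.09 and 3.45 on 2i_LIF arrays, and 0.25, 0.63, 1.79 and 1.94 on LIF_serum arrays. Every ground-state array lay above every serum array, and the serum arrays themselves fell into a low and a high pair, coded LS and LSFF. Scd1 rose by 2.60 ± 0.32 (SE) in 2iSB_LIF lines (limma adjusted p = 3.49e-05) and by 2.01 ± 0.32 in 2i_LIF lines (adjusted p = 0.000315). Scd2, a second desaturase of the same family, had log2 signals of 6.67, 6.35, 6.86 and 6.41 on 2iSB_LIF arrays, 6.31, 6.56, 6.42 and 6.49 on 2i_LIF arrays, and 4.79, 5.17, 5.19 and 5.27 on LIF_serum arrays. Neither ground-state group overlapped the serum arrays, and the difference was 1.46 ± 0.15 in 2iSB_LIF (adjusted p = 9.52e-06) and 1.34 ± 0.15 in 2i_LIF lines (adjusted p = 2.32e-05).

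Fasn, the fatty acid synthase that makes palmitate and whose promoter is shown above, had log2 signals of 0.16, 0.39, 0.98 and 0.45 on 2iSB_LIF arrays, 0.03, 0.68, 0.09 and 0.50 on 2i_LIF arrays, and −1.39, −1.05, −0.78 and −0.81 on LIF_serum arrays. It was positive on all ground-state arrays and negative on all serum arrays, with differences of 1.5 ± 0.21 (adjusted p = 0.000119) and 1.33 ± 0.21 (adjusted p = 0.000352) in 2iSB_LIF and 2i_LIF lines. Elovl6, which extends palmitate to stearate, had log2 signals of 4.70, 4.39, 4.66 and 4.34 on 2iSB_LIF arrays, 4.33, 4.49, 4.21 and 4.37 on 2i_LIF arrays, and 3.32, 3.05, 2.94 and 2.92 on LIF_serum arrays. Both ground-state groups were apart from serum, by 1.47 ± 0.14 in 2iSB_LIF (adjusted p = 3.42e-06) and 1.29 ± 0.14 in 2i_LIF lines (adjusted p = 1.28e-05). The earlier steps of the same route did not pass the test. Acly, which makes cytosolic acetyl-CoA from citrate, averaged 6.23 ± 0.36 (SD, n = 4) in 2iSB_LIF, 6.24 ± 0.14 in 2i_LIF and 6.0 ± 0.36 in LIF_serum lines, and Acaca, which makes malonyl-CoA, averaged 4.16 ± 0.23, 3.81 ± 0.27 and 4.09 ± 0.31. For both genes the arrays of the 3 groups overlapped.

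**Figure D2:**
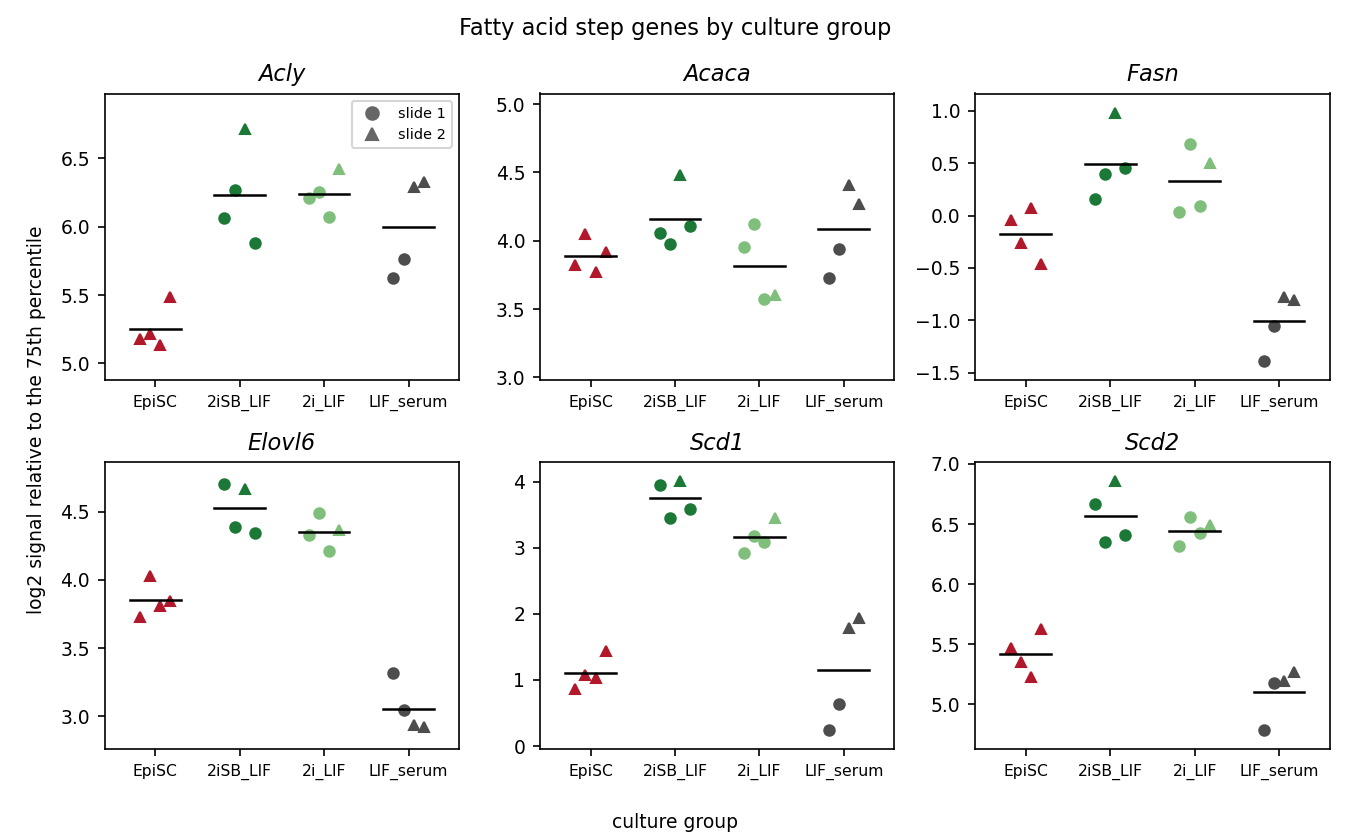
Log2 signal (vertical axis) of the 6 fatty acid step genes on each array, by culture group, with the group mean as a line and the slide as the marker shape. Fasn, Elovl6, Scd1 and Scd2 lie higher on every 2iSB_LIF and 2i_LIF array than on any LIF_serum array, and the groups overlap for Acly and Acaca.

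Among the 18 sterol synthesis steps, all differences were positive in both ground-state cultures, with medians of 0.66 in 2iSB_LIF and 0.62 in 2i_LIF lines, and 4 and 3 of them were called. None of the 7 mevalonate steps was called. Their differences lay between 0.36 and 0.87 in 2iSB_LIF lines and between 0.25 and 0.93 in 2i_LIF lines, with the highest value at Mvk, mevalonate kinase, and the lowest at Fdps and Hmgcs1. Mvk averaged 4.42 ± 0.20 in 2iSB_LIF, 4.49 ± 0.22 in 2i_LIF and 3.56 ± 0.30 in LIF_serum lines (SD, n = 4 each). It did not overlap between ground-state and serum arrays and stayed under the 2-fold minimum (limma adjusted p = 0.00118 and 0.000787). A second Mvk probe, not tested by itself, gave differences of 0.99 in 2iSB_LIF and 1.04 in 2i_LIF lines. Hmgcs1, the HMG-CoA synthase whose window holds the SRE letters, averaged 5.6 ± 0.50, 5.49 ± 0.54 and 5.24 ± 0.38 in 2iSB_LIF, 2i_LIF and LIF_serum lines. Its arrays overlapped.

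In the squalene and lanosterol steps, Sqle, squalene epoxidase, a rate-limiting enzyme of the route, had log2 signals of 5.22, 4.99, 5.36 and 4.88 on 2iSB_LIF arrays, 4.86, 4.85, 4.96 and 4.98 on 2i_LIF arrays, and 4.09, 4.00, 3.59 and 4.72 on LIF_serum arrays. Neither ground-state group overlapped the serum arrays, and Sqle rose by 1.01 ± 0.19 in 2iSB_LIF lines (adjusted p = 0.00114), just past the 2-fold minimum, while its difference was 0.81 ± 0.19 in 2i_LIF lines. The Sqle call in 2iSB_LIF lines was lost under 9 of 23 alternatives, with differences of 0.84 to 1.22. Fdft1, squalene synthase, which commits farnesyl diphosphate to sterols, differed by 0.66 ± 0.18 and 0.94 ± 0.18 and Lss, lanosterol synthase, by 0.36 ± 0.20 and 0.40 ± 0.20 in 2iSB_LIF and 2i_LIF lines, none of them called.

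Of the 8 late sterol steps, Cyp51, Nsdhl and Hsd17b7 rose in both cultures. Cyp51, the lanosterol demethylase, had log2 signals of 1.69, 1.06, 1.61 and 1.21 on 2iSB_LIF arrays, 1.19, 1.63, 1.40 and 1.46 on 2i_LIF arrays, and −0.06, −0.22, −0.37 and −0.29 on LIF_serum arrays. It was negative on all serum arrays and positive on all others, and rose by 1.63 ± 0.16 in 2iSB_LIF (adjusted p = 4.24e-06) and 1.66 ± 0.16 in 2i_LIF lines (adjusted p = 4.21e-06). Hsd17b7, a ketosteroid reductase of the complex that removes methyl groups from the sterol ring, had log2 signals of 0.73, −0.01, −0.21 and 0.10 on 2iSB_LIF arrays, 0.25, 0.06, 0.31 and 0.34 on 2i_LIF arrays, and −0.80, −0.98, −0.89 and −0.98 on LIF_serum arrays. Its serum arrays lay close together and below all ground-state arrays, and the differences were 1.06 ± 0.18 (adjusted p = 0.000451) and 1.15 ± 0.18 (adjusted p = 0.000284). A second Hsd17b7 probe gave 1.11 in both. The Hsd17b7 call in 2iSB_LIF lines was lost with normexp (0.95), within slide 2 (0.72) and without 2iSB_LIF array 1 (0.87).

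Nsdhl, the sterol dehydrogenase of that complex and an X-linked gene, had log2 signals of 1.40, 1.33, 2.11 and 2.26 on 2iSB_LIF arrays, 2.14, 2.03, 1.06 and 1.44 on 2i_LIF arrays, and 0.34, 0.24, 0.69 and 0.67 on LIF_serum arrays. The ground-state arrays spread widely yet stayed above the serum arrays, with differences of 1.29 ± 0.26 (adjusted p = 0.0015) and 1.19 ± 0.26 (adjusted p = 0.00302). Within slide 1 the Nsdhl differences of 1.37 and 1.46 were not called (adjusted p = 0.063 and 0.0547), and in 2i_LIF lines the call was also lost within slide 2 (0.77) and against LSFF arrays alone (0.99). The other 5 late steps were not called. Their differences ran from 0.26 (Sc5d, the lathosterol desaturase) to 1.03 (Ebp, the sterol isomerase, adjusted p = 0.0595) in 2iSB_LIF lines and from 0.11 (Sc5d) to 0.79 (Ebp) in 2i_LIF lines.

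Ebp and Nsdhl are the X-linked genes of the list, and Ebp was uneven between lines of a group. Ebp had log2 signals of 3.89, 5.29, 5.94 and 5.25 on 2iSB_LIF arrays, 5.52, 5.52, 3.87 and 4.53 on 2i_LIF arrays and 4.18, 4.25, 3.83 and 3.99 on LIF_serum arrays. Over 620 X-linked genes, the median difference from the LIF_serum mean was −0.15, 0.60, 1.01 and 0.61 on the same 2iSB_LIF arrays and 0.88, 0.61, −0.21 and 0.01 on the 2i_LIF arrays, and over 14884 autosomal genes it stayed between −0.06 and 0.10 on all 16 arrays. The 5 ground-state arrays with the higher X-linked medians were the 5 with the highest Ebp signal. Nsdhl did not follow the same order on 2iSB_LIF array 2, which had 1.33. Y-linked signal, given above for these groups, was well above background on all 4 EpiSC arrays, with means of 2.77 and 3.25 on arrays 1 and 2 and −1.94 and −3.06 on arrays 3 and 4. The number of active X chromosomes in these lines was not measured, and the part of such a difference in the Ebp and Nsdhl values was not tested. These per-array medians were computed after the data had been seen.

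**Figure D3:**
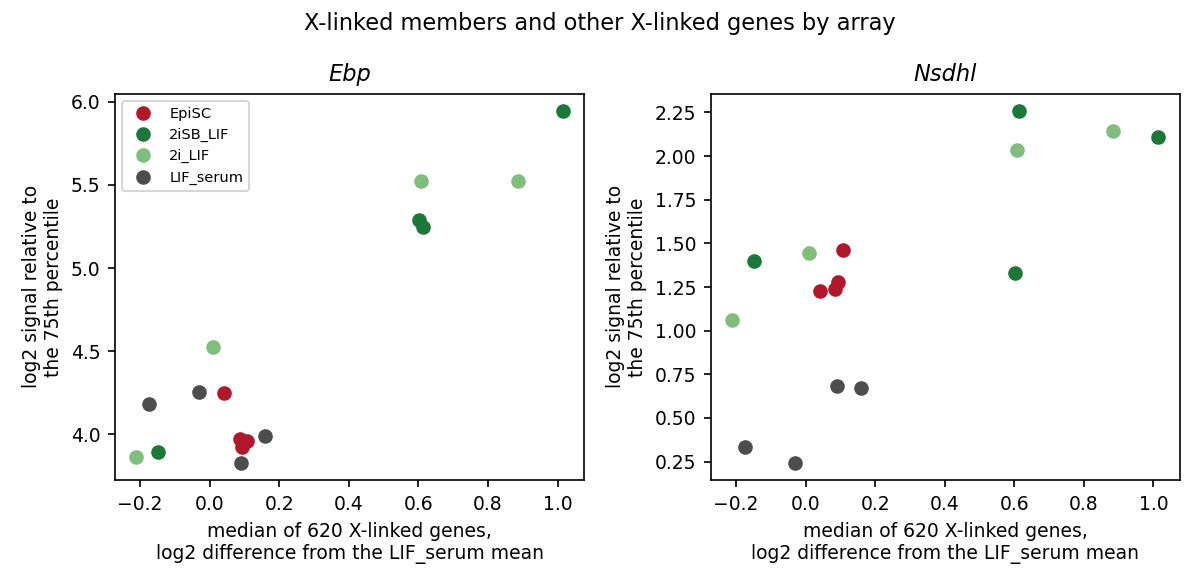
Log2 signal of Ebp and Nsdhl on each array (vertical axes) against the array's median difference of 620 X-linked genes from the LIF_serum mean (horizontal axes), coloured by culture group. Ebp is at 5.25 or higher on the 5 ground-state arrays whose X-linked median is 0.60 or higher, and at 4.53 or lower on all other arrays.

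Of the 6 regulators and transport genes, 2 rose in 2iSB_LIF lines and none in 2i_LIF lines. Srebf1, which encodes the SREBP form tied to fatty acid synthesis, had log2 signals of −2.42, −1.55, −1.55 and −2.29 on 2iSB_LIF arrays, −2.39, −2.06, −2.16 and −1.95 on 2i_LIF arrays, and −3.38, −3.20, −2.85 and −2.93 on LIF_serum arrays. The serum arrays were lowest, and the difference was 1.14 ± 0.21 in 2iSB_LIF (adjusted p = 0.000827) and 0.95 ± 0.21 in 2i_LIF lines (adjusted p = 0.00325), the second just under the 2-fold minimum. With another background correction (normexp) the Srebf1 difference in 2iSB_LIF lines was 0.61 and not called. In all, this call was lost under 4 of 23 alternatives, the others being the authors' table, LSFF arrays alone and passage as a covariate. Stard4, which carries cholesterol between membranes, had log2 signals of 3.55, 2.97, 2.75 and 3.24 on 2iSB_LIF arrays, 3.25, 2.62, 2.97 and 2.54 on 2i_LIF arrays, and 1.65, 1.73, 2.42 and 2.60 on LIF_serum arrays. It rose by 1.03 ± 0.24 in 2iSB_LIF lines (adjusted p = 0.00455), and a second probe gave 0.66, with the call lost when the probes were averaged. In all, the Stard4 call was lost under 9 of 23 alternatives, among them leaving out LIF_serum array 1 or 2 (0.88 and 0.90) or 2iSB_LIF array 1 or 4 (0.89 and 0.99), and the difference was 0.24 within slide 2. Scap, Srebf2, Insig1 and Insig2 were not called, with differences of 0.08 (Insig2) to 0.85 (Scap) in 2iSB_LIF lines and −0.01 (Insig2) to 0.66 (Insig1) in 2i_LIF lines. The 2 Srebf2 probes had opposite signs, 0.32 and −0.33 in 2iSB_LIF lines, so no direction is given for Srebf2.

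**Figure D4:**
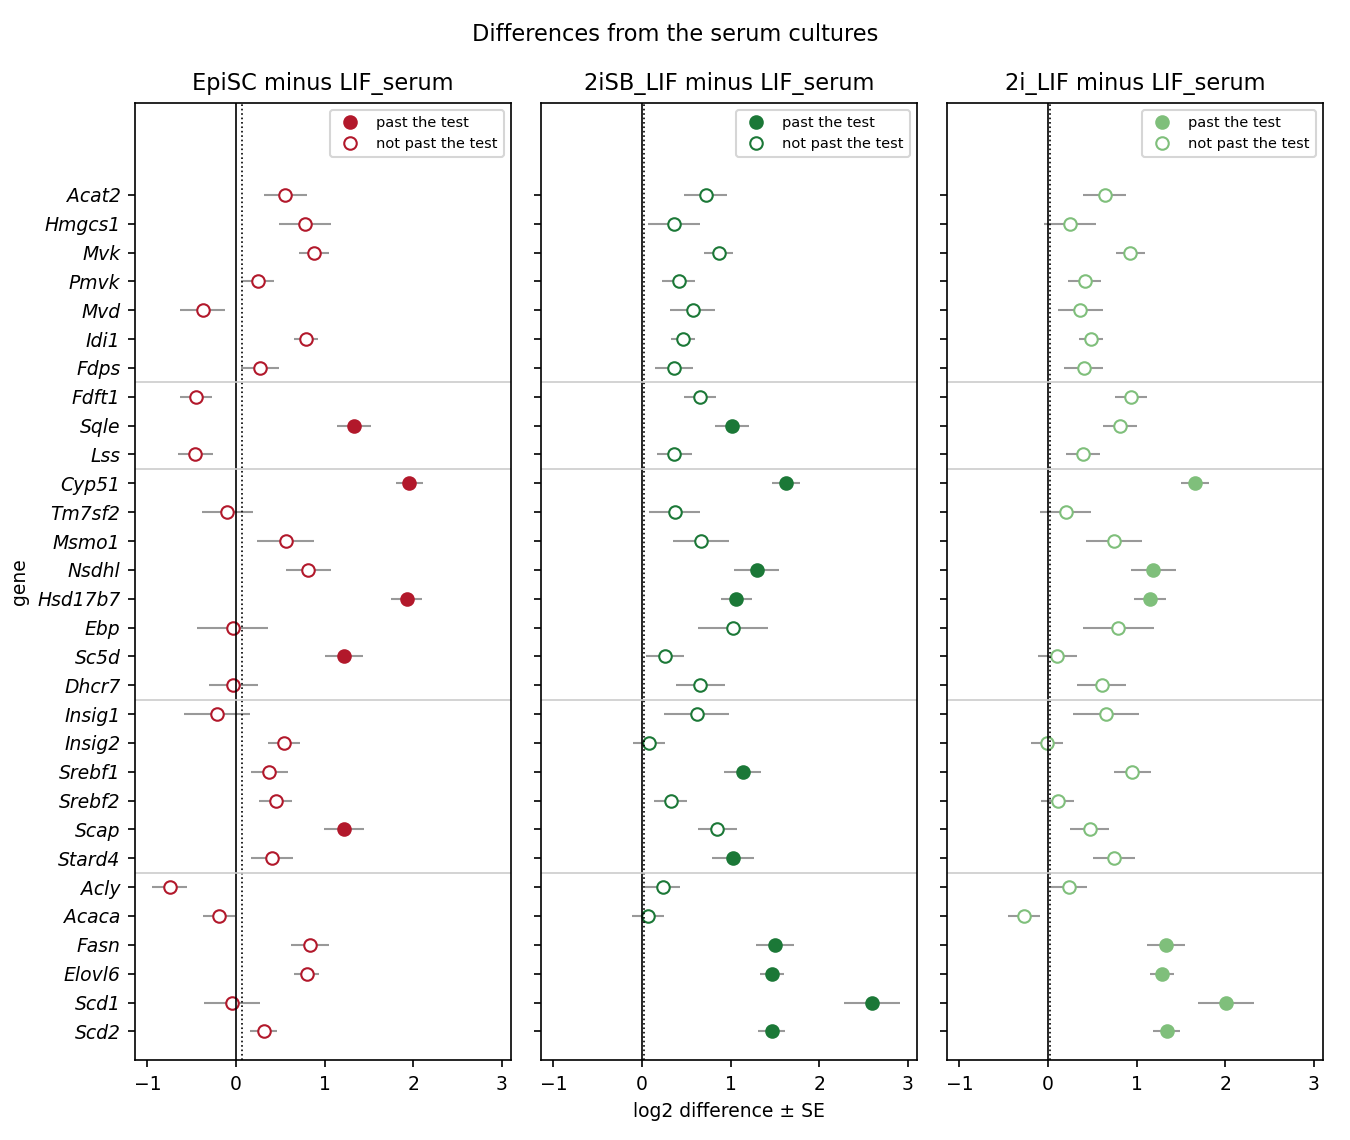
Difference from LIF_serum (horizontal axis, log2, with SE bars) of each of the 30 genes (down the page, by role) in EpiSC, 2iSB_LIF and 2i_LIF lines, with filled points for genes called and a dotted line at the median of all genes. The called fatty acid genes, Fasn, Elovl6, Scd1 and Scd2, lie at 1.29 to 2.60 in the ground-state panels and are open points in the EpiSC panel.

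These differences were also read by slide and by serum code, and the part of either in their size was not tested. Within slide 1, where the serum arrays are coded LS, the median member difference was 0.92 in 2iSB_LIF and 0.76 in 2i_LIF lines, and within slide 2, where they are coded LSFF, it was 0.34 and 0.57, with a single array of each ground-state group. The fatty acid median was 1.39 and 1.30 within slide 1 and 1.68 and 1.28 within slide 2. Against the LS arrays alone, 14 genes were called higher in 2iSB_LIF and 13 in 2i_LIF lines, against 5.5% and 4.89% of all genes. Against the LSFF arrays alone, 8 and 7 were called higher, against 9.47% and 9.55% of all genes. Scd1, Scd2, Fasn, Elovl6, Cyp51 and Hsd17b7 were called against either code in both cultures, and Srebf1 (0.94), Stard4 (0.62) and Sqle (0.95) lost the 2iSB_LIF call against LSFF arrays, as Nsdhl lost the 2i_LIF call.

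No gene of the list was called between the 2 ground-state cultures, against 0.0838% of all genes, which is 13 of 15509, by limma. With no fold minimum none was called either, against 0.0129% of all genes higher and 0.0709% lower, and the groups overlapped for all 30 genes, against 2.15% of all genes that did not overlap. Differences of 2iSB_LIF minus 2i_LIF lay between −0.28 (Fdft1) and 0.59 (Scd1), with a median of 0.11. Their SEs, 0.14 to 0.40, rest on the spread within all 4 groups. Scd1 averaged 3.75 ± 0.27 in 2iSB_LIF and 3.16 ± 0.22 in 2i_LIF lines (SD, n = 4 each). Its difference was 0.59 ± 0.32 (limma adjusted p = 0.995), and that SE also holds the spread of the LIF_serum lines (SD 0.84). The lowest 2iSB_LIF value, 3.4496, lay just under the highest 2i_LIF value, 3.4514.

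EpiSC lines were compared with the same serum cultures. Against LIF_serum lines, 5 of 30 genes were called higher, against 18% of all genes, and none lower, against 15.6%, so the share called was no larger than that of all genes. The 5 were 4 sterol steps, Sqle, Cyp51, Hsd17b7 and Sc5d, and the regulator Scap. None of the 6 fatty acid steps was called. Their differences ran from −0.75 (Acly) to 0.83 (Fasn), 3 positive and 3 negative, with a median of 0.13. Each role holds few genes, and whether the calls differ between roles was not tested. Fasn averaged −0.17 in EpiSC and −1.01 in LIF_serum lines, and Elovl6 averaged 3.85 and 3.06. For both, the EpiSC arrays did not overlap the serum arrays. Cyp51 had log2 signals of 1.75, 1.69, 1.62 and 1.83 on EpiSC arrays, all above the serum values given earlier, and rose by 1.96 ± 0.16 (adjusted p = 1.14e-07). Hsd17b7 had 1.02, 0.99, 1.26 and 0.78 and rose by 1.93 ± 0.18 (adjusted p = 5.56e-07). Sqle had 5.44, 5.38, 5.39 and 5.53 and rose by 1.33 ± 0.19 (adjusted p = 4.24e-05). None of these EpiSC arrays overlapped the serum arrays, which held for 13 of the 30 genes, against 58.8% of all genes, and these 3 calls held under all 22 alternatives.

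Sc5d had log2 signals of 2.84, 2.60, 2.73 and 2.88 on EpiSC arrays and 0.99, 1.36, 1.79 and 2.02 on LIF_serum arrays, a rise of 1.22 ± 0.22 (adjusted p = 0.000269). Scap, which escorts SREBP proteins out of the endoplasmic reticulum, had 4.34, 4.04, 4.07 and 4.01 on EpiSC arrays and 2.57, 2.79, 3.14 and 3.10 on LIF_serum arrays, a rise of 1.22 ± 0.22 (adjusted p = 0.000329). Neither gene overlapped between the groups, but in both the LSFF serum arrays lay nearer to EpiSC, and against these alone, the serum arrays on the same slide, the differences were 0.86 and 1.00 and not called. The median over the 30 genes was 0.43 in all and 0.18 within slide 2. Sterol steps with negative signs, none of them called, were Fdft1 (−0.45 ± 0.18), Lss (−0.46 ± 0.20) and Mvd, mevalonate diphosphate decarboxylase (−0.38 ± 0.25), with Dhcr7, Ebp and Tm7sf2 between −0.10 and −0.03. With median centring, described next, all 6 turned positive, with Fdft1 at 0.08, Lss at 0.08 and Mvd at 0.16, so no direction is given for them. Acly differed by −0.75 ± 0.20 (adjusted p = 0.00565), under the 2-fold minimum, with 5.18, 5.21, 5.13 and 5.49 on EpiSC arrays and 5.63, 5.76, 6.29 and 6.33 on LIF_serum arrays. With the slide as a term in the fit, Acly was the single gene called lower, at −1.0. EpiSC arrays carried the highest fibroblast marker signal, as given above. Of 7 endoderm markers, 3 were called higher in EpiSC than in LIF_serum lines, and 4 and 5 higher than in 2iSB_LIF and 2i_LIF lines (median differences 1.67 and 2.40), with mean log2 signals of −0.61 to 0.88 on EpiSC arrays and −2.44 to −0.21 on LIF_serum arrays. The part of either cell type in the EpiSC differences was not tested.

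The scale matters most for EpiSC comparisons. When arrays were centred on the median of all probes instead of the 75th percentile, the median of all genes in EpiSC minus LIF_serum moved to 0.61, against 0.07 here, and 14 of the 30 genes were called higher, against 32.9% of all genes. The median of the 30 less that of all genes, which this choice of scale leaves unchanged by construction, was 0.36. The counts against serum in 2iSB_LIF and 2i_LIF lines, 10 and 7, were the same on both scales, against 6.43% and 5.6% of all genes with median centring.

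Against the ground-state cultures, EpiSC lines had lower signal of the desaturases. In EpiSC minus 2iSB_LIF, 4 of 30 genes were called lower, against 16.2% of all genes, and none higher, against 20.1%. In EpiSC minus 2i_LIF, 3 were called lower, against 16.8%, and 1 higher, against 20.6%. The arrays did not overlap for 15 genes in each comparison, against 54.2% and 55.2% of all genes. Scd1 had 0.87, 1.07, 1.02 and 1.44 on EpiSC arrays, below every ground-state array, with differences of −2.64 ± 0.32 from 2iSB_LIF (adjusted p = 4.61e-06) and −2.06 ± 0.32 from 2i_LIF lines (adjusted p = 5.61e-05). Scd2 had 5.47, 5.35, 5.23 and 5.63 on EpiSC arrays and differed by −1.15 ± 0.15 (adjusted p = 1.33e-05) and −1.03 ± 0.15 (adjusted p = 4.01e-05). Fdft1 had 2.61, 2.98, 2.78 and 2.76 on EpiSC arrays, 4.13, 3.71, 3.78 and 3.95 on 2iSB_LIF arrays and 3.99, 4.06, 4.24 and 4.38 on 2i_LIF arrays. The groups were apart by −1.11 ± 0.18 (adjusted p = 9.89e-05) and −1.39 ± 0.18 (adjusted p = 1.11e-05). With median centring, where all genes shifted to medians of 0.56 and 0.58, the Scd1 calls held at −2.12 and −1.52, while Scd2 (−0.63 and −0.49) and Fdft1 (−0.59 and −0.85) kept the sign and lost the call. In EpiSC minus 2i_LIF the Scd2 call was lost under 5 of 20 alternatives in all, among them normexp (−0.98), the authors' table (−0.97) and leaving out EpiSC array 3 (−0.96) or 2i_LIF array 2 (−0.99).

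Sc5d went the other way. It was higher in EpiSC than in 2i_LIF lines by 1.12 ± 0.22 (adjusted p = 0.000489), with 1.86, 1.70, 1.19 and 1.84 on 2i_LIF arrays, and the call was lost under 5 of 20 alternatives, at 0.75 or more in each. Ebp was lower in EpiSC than in 2iSB_LIF lines by 1.07 on the log2 scale (difference −1.07 ± 0.40, adjusted p = 0.0342), with 4.25, 3.96, 3.97 and 3.92 on EpiSC arrays. Here the groups overlapped at 2iSB_LIF array 1, and the call was lost under 10 of 20 alternatives. Fasn and Elovl6 differed by −0.67 in EpiSC minus 2iSB_LIF and by −0.50 and −0.49 in EpiSC minus 2i_LIF, and were not called. With median centring these were −0.15 for both and, in EpiSC minus 2i_LIF, 0.04 and 0.05, so the sign turned there. Acly differed by −0.98 from each ground-state culture and was not called. A second Acly probe gave −1.10 from 2iSB_LIF and −1.23 from 2i_LIF lines. Acaca differed by −0.27 from 2iSB_LIF and 0.08 from 2i_LIF lines, not called. Its other probes gave −0.78 and −0.92 from 2iSB_LIF and −0.63 and −0.65 from 2i_LIF lines. Over the 6 fatty acid steps the median was −0.82 and −0.74, against −0.14 and −0.15 over the 18 sterol steps. With median centring these were −0.30 and −0.20, against 0.39 and 0.39. Across all 4 groups, the lowest group mean was in EpiSC for 9 of the 30 genes and in LIF_serum for 19, against 36.8% and 25.9% of all genes. With median centring, an alternative chosen after the data had been seen, it was in EpiSC for 1 gene, Acly, and in LIF_serum for 27, against 19.7% and 35.0% of all genes. No member had its highest group mean in LIF_serum lines on either scale, against 21.7% of all genes here and 12.3% with median centring.

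The LIF_serum lines were not uniform for these genes. LSFF and LS arrays were compared after the data had been seen, with 2 arrays each and the spread shared with the other groups. Insig1, which encodes a protein that holds SCAP in the endoplasmic reticulum and is itself a target of SREBP, had log2 signals of 1.30 and 1.17 on LSFF arrays and −0.46 and −0.62 on LS arrays. The LSFF arrays lay among the ground-state arrays and the LS arrays below all others, and the difference was 1.78 ± 0.24, or 3.42-fold (limma adjusted p = 0.000645). Scd1 differed by 1.43 ± 0.25 (adjusted p = 0.00359). Dhcr7, the reductase of the last step to cholesterol, had 1.86 and 1.65 on LSFF arrays and 0.64 and 0.51 on LS arrays, a difference of 1.18 ± 0.24 (adjusted p = 0.00892). These 3 of 30 genes were called higher in LSFF arrays, against 2.99% of all genes, and none lower, against 5.44%. The median of the 30 was 0.43 and that of all genes 0.07. With slide as a term, which takes the slide difference from the other groups, Insig1 (2.07 ± 0.28) and Scd1 (1.06 ± 0.27) were called, Dhcr7 was not (1.00 ± 0.30, adjusted p = 0.0609), and Stard4 was (1.28 ± 0.28, adjusted p = 0.0186). Within the serum group itself, slide, code and passage cannot be told apart, since LS lines were at passages 23 and 24 and LSFF lines at passage 26. Of 18 fibroblast markers, 10 were called lower on LSFF arrays, against 5.44% of all genes, and 2 had a positive sign (median of the 18, −2.70). The endoderm markers averaged −0.34 and −0.21 on LSFF arrays, against −2.44 and −2.09 on LS arrays, and the naive markers 4.14 and 4.29, against 5.05 and 4.91. The part of these cells in the LSFF differences was not tested.

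**Figure D5:**
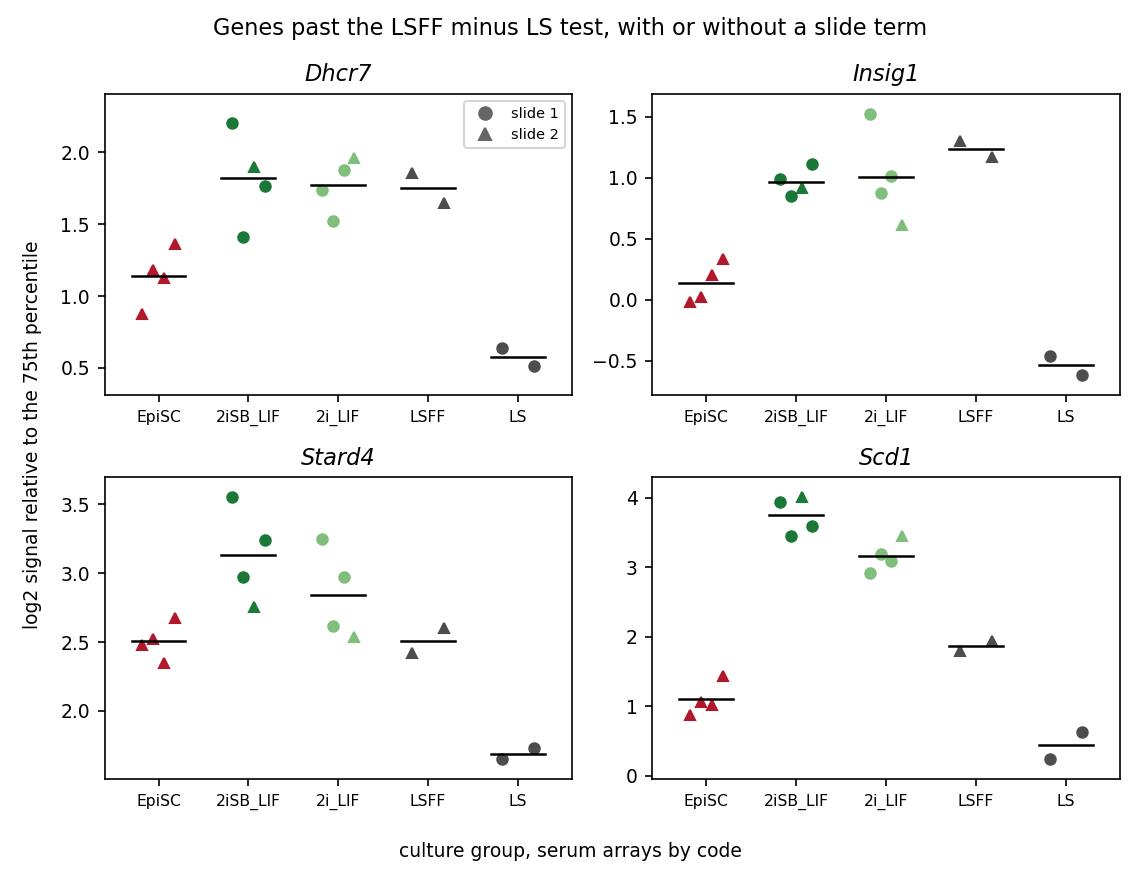
Log2 signal (vertical axis) of Dhcr7, Insig1, Stard4 and Scd1 on each array, with serum arrays split by code, group means as lines and the slide as the marker shape. The 2 LS arrays lie lowest in all 4 panels, and for Insig1 the LSFF arrays, at 1.17 and 1.30, lie among the ground-state arrays.

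Genes next to these routes were counted from neighbouring lists. The shares of all genes called against LIF_serum, for comparison with each count, are 18% higher and 15.6% lower in EpiSC, 6.81% and 13.3% in 2iSB_LIF, and 6.25% and 12.1% in 2i_LIF lines, and several counts in these small lists lie near them. Of 19 other fatty acid synthesis, elongation and desaturation genes, 4 rose and 1 fell in 2iSB_LIF against LIF_serum lines, 3 rose and 2 fell in 2i_LIF lines, and 2 rose and 4 fell in EpiSC lines. Acss2, which makes acetyl-CoA from acetate, differed by 1.65 and 1.01 in 2iSB_LIF and 2i_LIF lines and by −1.17 in EpiSC lines. Acsl1, which activates fatty acids with CoA, differed by 1.06 and 1.11 and by −1.23, and Fads2, a desaturase of polyunsaturated fatty acids, rose by 1.24 and 1.18. Fads3, a related gene, fell by 3.72 and 3.71 in the ground-state cultures and was 1.18 higher in EpiSC lines, all against LIF_serum. Thrsp, a lipogenic regulator, was well above background on no EpiSC array and was at least 25.4-fold lower there than in LIF_serum lines.

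In sterol transport and efflux, 3 of 12 genes rose and 1 fell in 2iSB_LIF against LIF_serum lines, 2 rose and 2 fell in 2i_LIF lines, and 4 rose and 2 fell in EpiSC lines. Abca1, which exports cholesterol, rose by 2.18 ± 0.49 and 1.51 ± 0.49 in 2iSB_LIF and 2i_LIF lines, and Scarb1, a lipoprotein receptor, by 1.18 and 1.1. Soat1, which esterifies cholesterol for storage, fell by 2.25 and 2.29 in these cultures and rose by 1.11 in EpiSC lines. In EpiSC lines Vldlr, a lipoprotein receptor, rose by 1.99, Lipa, the lysosomal lipase, rose by 1.23, and the exporter Abcg1 fell by 3.95. Mylip, which promotes breakdown of lipoprotein receptors, rose by 1.16 in 2iSB_LIF and fell by 1.27 in EpiSC lines. Of the 7 SREBP processing genes, Mbtps2, which encodes an X-linked protease that cuts SREBP, rose by 1.08 in 2iSB_LIF lines, and none was called in 2i_LIF lines. In EpiSC lines 2 of the 7 rose, among them Rnf139, a ubiquitin ligase, by 1.06. Among 7 isoprenoid branch genes only Dhdds (1.03, EpiSC) was called against serum. Of 11 fatty acid oxidation genes, Cpt1a, which admits fatty acids to mitochondria, rose by 1.80 in 2i_LIF and 1.82 in EpiSC lines, and Acadl fell by 1.34 in 2iSB_LIF and rose by 1.52 in EpiSC lines.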

How the data were processed

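Total RNA of 16 lines was labelled with Cy3 and hybridised to single-colour Agilent mouse arrays. The deposited scanner files hold intensities that the authors extracted with Agilent Feature Extraction 10.7.1.1, per the file headers, as background-subtracted processed signals. The authors' deposited table of log2 values (42316 probes, column medians 7.51 to 7.58) was used as an alternative; its scale was read from the values, and of its normalization only limma is named, in the submitters' processing notes. The headers name build mm9, and 27656 of 55681 probes received 1 gene symbol through RefSeq accessions of GRCm38.p6.

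Here log2 of the processed signal minus the 75th percentile of each array was tested with lmFit and eBayes of limma 3.58.1, all 4 groups in 1 fit (R 4.3.3, jsonlite 2.0.0 and the package data.table, version 1.17.8). Outlier spots were set missing. Of several probes of a gene, 11 members having several, the one with the highest mean signal was used. A gene entered the test, 15509 in all, if every array of some group had it well above background, and the scripts were tested on simulated data. P-values of this fit set a difference against the spread between lines within groups. That spread is pooled over all 4 groups, LIF_serum with its LS and LSFF arrays included. Values by array are given for members called in at least 1 of the 6 comparisons, and for a few others that a result turned on, chosen after their values were seen. The members and lists were chosen with earlier results of these data known. Alternatives were another scaling, background correction, filter, probe rule, slide, passage, replicate block and leaving out each array. The normexp alternative used the median spot signal. The same replicate number did not pair samples (correlations of deviations −0.593 to 0.402). Results of 1 gene of the neighbouring lists are not reported here.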

Additional observations from a re-analysis of the deposited data

Results flagged for a closer look

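In 3 of 120 groups of 4 arrays, 1 array lay far from the other 3 by Dixon's test, where chance alone flags about 1 in 20 groups, or 6 here. Acat2, the thiolase that joins acetyl-CoA units, had a log2 signal of −1.38 on 2iSB_LIF array 3, against −0.68 to −0.56 on the other 2iSB_LIF arrays. Ebp had 4.25 on EpiSC array 1, against 3.92 to 3.97 on the other EpiSC arrays. Srebf2 had 1.47 on 2iSB_LIF array 2, against 1.62 to 1.65 on the other 2iSB_LIF arrays.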

How the results depend on the processing

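Of 30 called member results, 16 kept their call under all alternatives, 14 lost it under at least 1 and none reversed. Members called higher and lower, median member differences and genes called moved as follows. Genes called are out of 15509 unless fewer were tested. Some alternatives used fewer genes or arrays, and the cause of a move was not tested. The share of all genes called in each direction is not given in this section. Its member counts therefore show only a change from the main fit, not a result about the members. With median centring, EpiSC minus LIF_serum had 14 higher and a median of 0.96, EpiSC minus 2i_LIF had 6 higher, 1 lower and a median of 0.30, and EpiSC minus 2iSB_LIF had 2 higher, 1 lower and a median of 0.15. With the authors' table, EpiSC minus 2i_LIF had 0 higher. With no fold minimum, EpiSC minus LIF_serum had 12 higher, 2 lower and 8274 genes called, 2i_LIF minus LIF_serum 13 higher and 4686 genes, 2iSB_LIF minus LIF_serum 5239 genes, EpiSC minus 2i_LIF 5 higher, 8 lower and 8711 genes, and EpiSC minus 2iSB_LIF 4 higher, 12 lower and 8500 genes. Where a gene had to be well above background on all 16 arrays, 12337 genes were tested and the genes called were 3337 for EpiSC, 1825 for 2iSB_LIF and 1679 for 2i_LIF against LIF_serum, 3615 for EpiSC minus 2i_LIF and 3460 for EpiSC minus 2iSB_LIF. With slide as a term, EpiSC minus LIF_serum had 1 lower, EpiSC minus 2i_LIF 0 higher, 6 lower and a median of −0.48, and EpiSC minus 2iSB_LIF 8 lower. Within slide 1, 2i_LIF minus LIF_serum had 11 higher and 1683 genes, 2iSB_LIF minus LIF_serum a median of 0.92 and 1756 genes, and 2iSB_LIF minus 2i_LIF 2 genes. Within slide 2, where each ground-state group has 1 array assumed to vary like the others, EpiSC minus LIF_serum had 2 lower and a median of 0.18, 2iSB_LIF minus LIF_serum a median of 0.34 and 4966 genes, and 2iSB_LIF minus 2i_LIF 2 higher, 1 lower and 2234 genes. On that slide EpiSC minus 2i_LIF had 0 higher and a median of −0.47, and EpiSC minus 2iSB_LIF 1 higher. Against LS arrays alone, EpiSC lines had 9 higher and a median of 0.67, 2iSB_LIF lines a median of 0.91 and 2i_LIF lines 13 higher. Against LSFF arrays alone, EpiSC lines had 2 lower and a median of 0.18, 2iSB_LIF lines a median of 0.38 and 2i_LIF lines a median of 0.31. With passage as a covariate, 2iSB_LIF minus LIF_serum had 1897 genes, 2iSB_LIF minus 2i_LIF 43, EpiSC minus 2i_LIF 0 higher and 5 lower, and EpiSC minus 2iSB_LIF 9 lower. With only the 2 groups compared, 2iSB_LIF minus 2i_LIF had 3 genes.

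Leaving out 1 array at a time gave, for EpiSC minus LIF_serum, 5 to 6 higher, 0 lower, medians of 0.34 to 0.53 and 4954 to 5167 genes. For 2iSB_LIF minus LIF_serum it gave 8 to 10 higher, medians of 0.51 to 0.81 and 2674 to 3420 genes, and for 2i_LIF minus LIF_serum 7 to 10 higher, medians of 0.52 to 0.77 and 2395 to 3008 genes. For 2iSB_LIF minus 2i_LIF it gave no member, medians of 0.03 to 0.18 and 11 to 27 genes. For EpiSC minus 2i_LIF it gave 0 to 1 higher, 2 to 5 lower, medians of −0.33 to −0.19 and 5597 to 5962 genes, and for EpiSC minus 2iSB_LIF 0 to 1 higher, 3 to 5 lower, medians of −0.47 to −0.25 and 5421 to 5823 genes. Ebp in EpiSC minus 2iSB_LIF was −0.78 without 2iSB_LIF array 3 (adjusted p = 0.107, limma).

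With the replicate number as a block, though the numbers do not pair the samples, the genes called were 5176 for EpiSC, 3031 for 2iSB_LIF and 2732 for 2i_LIF against LIF_serum, 8 for 2iSB_LIF minus 2i_LIF, 5799 for EpiSC minus 2i_LIF and 5629 for EpiSC minus 2iSB_LIF. Of the members, the block lost the Ebp call in EpiSC minus 2iSB_LIF, which left 3 lower.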
